A study of Mus musculus with 12 samples.

Results

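Aminoacyl-tRNA synthetases are the enzymes that load each amino acid onto its tRNA. Their mRNAs were followed here across 12 RNA sequencing libraries from polysome gradients of mouse liver. The 37 genes were taken by name from the annotated protein-coding genes, as 1 amino acid letter followed by "ars" with the ending 1, 2 or none, together with Eprs, Farsa and Farsb. They make up 37 of the 27179 genes in the count tables, with 20 enzymes that serve the cytosol and 17 that serve mitochondria. Lars2, the mitochondrial leucyl-tRNA synthetase, was kept apart for the reason given below, which leaves 36. Of these, 35 passed the filter on low counts. Pars2, the mitochondrial prolyl enzyme, did not, with 0 to 18 counts per library.

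The livers came from 6 male C57BL/6 mice. Both wild-type animals of the first group received a ketogenic diet for 24 h (keto 1 and keto 2). A single chow-fed animal was homozygous for eIF4E S209A, an allele in which the phosphorylation site of the cap-binding protein eIF4E is an alanine. The other 3 animals were chow-fed wild types (chow 1 to chow 3). Sample titles read "chow" for chow 1 and chow 2, "keto" for the keto animals and "fed" for chow 3 and S209A. Where title wording is named below as a batch, only chow 3 carries the "fed" term, since S209A had its own term. That setting thus compares the keto livers with chow 1 and chow 2. Ages are not given in the labels. Each liver gave a heavy and a light pool of gradient fractions, which the series' text sets out to separate by how strongly their mRNAs were translated. With 1 S209A animal, its values have no replicate check. Fewer cells of a type and less RNA per cell cannot be told apart in such bulk samples.

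Library totals ran from 3341046 to 13263355 counts, and nuclear protein-coding genes took 356666 to 1777315 of them. The synthetases without Lars2 received 468 to 3581 counts per library, so between 2 and 21 of them had under 10 counts in a given library. Summed markers of hepatocytes ranged from 38483 to 65546 counts per 1000000 protein-coding counts, with all 6 markers detected in every library. Markers of lymphocytes, neutrophils and exocrine pancreas reached at most 13.5, 8.08 and 18.6 counts per 1000000 protein-coding counts. The file headers name Bowtie2 for chow 1 and chow 2, HISAT2 for chow 3 and S209A, and no aligner for the keto animals, so diet and processing cannot be told apart.

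As background, cytosolic synthetases charge tRNAs for ribosomes that translate nuclear mRNAs, and a separate set, made from nuclear genes and imported, charges tRNAs inside mitochondria. Class I and class II enzymes have unrelated catalytic folds. In mammals several cytosolic enzymes assemble with the scaffold proteins Aimp1, Aimp2 and Eef1e1 in a multisynthetase complex. When amino acids run short, uncharged tRNA activates the kinase GCN2, translation of the transcription factor ATF4 goes up, and ATF4 drives many cytosolic synthetase genes through amino acid response elements.

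A sequence of the amino acid response element was looked for in RefSeq promoters (mouse build GRCm38.p6, 250 bases before to 50 after each start site). The motif searched was TGATGNAA, a core of the ATF4-type response element, on both strands. Promoter entries matched 27 of the 37 synthetases. The motif was present in 5 of these 27 (18.5%), against 1219 of 27025 genes in the table (4.51%). All 5 belong to the 13 cytosolic synthetases listed as ATF4-induced, of which 8 had a promoter entry, and none of the other 19 promoters held it. The stretches around these matches are shown on the gene's strand because the amino acid response is the best-known control of this family; capitals mark the motif, read as TTGCATCA or TTTCATCA where it lies on the opposite strand.
Aars (alanyl enzyme, chr8:111033700-111033888, plus strand): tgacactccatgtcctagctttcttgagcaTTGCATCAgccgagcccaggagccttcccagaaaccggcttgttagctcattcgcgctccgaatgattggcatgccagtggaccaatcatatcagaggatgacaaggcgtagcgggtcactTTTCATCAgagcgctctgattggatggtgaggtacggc
Gars (glycyl enzyme, chr6:55037941-55038008, plus strand): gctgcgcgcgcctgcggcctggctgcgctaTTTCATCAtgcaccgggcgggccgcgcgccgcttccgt
Iars (isoleucyl enzyme, chr13:49682107-49682174, plus strand): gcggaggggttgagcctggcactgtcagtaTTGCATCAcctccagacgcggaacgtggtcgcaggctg
Tars (threonyl enzyme, chr15:11399636-11399703, minus strand): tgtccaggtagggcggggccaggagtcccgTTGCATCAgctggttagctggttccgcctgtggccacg
Yars (tyrosyl enzyme, chr4:129189876-129189943, plus strand): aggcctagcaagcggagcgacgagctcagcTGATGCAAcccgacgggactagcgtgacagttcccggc
The Aars window holds a pair of matches, beginning 112 bases before and 9 bases after the start site of its promoter entry. The matches of Gars and Tars begin 30 and 15 bases before that site, and those of Iars and Yars 7 and 3 bases after it. For Aars and Yars the promoter entries start at 111033842 and 129189903, whereas the annotated genes start at 111027778 and 129189734. A match describes these letters only.

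Lars2 was set apart because its counts were far above those of the rest of the family. It received 14285 to 81834 counts per library, 8.51 to 90.5 times the counts of all other synthetases together. Its counts moved with an Entrez ID without a name in the reference, which alone took 15.9% to 59.1% of a library: Lars2 had 9.82 to 23.7 counts for every 1000 counts of that ID. In counts per 1000000 scaled by the trimmed mean of M-values (CPM), Lars2 stood at 12868 and 2759 in keto heavy pools, 4705 in the S209A heavy pool, and 7565, 5224 and 4199 in chow heavy pools. In light pools it stood at 15023 and 14977 in keto livers, 2991 in the S209A liver, and 6750.2, 11716 and 2665 in chow livers. The values overlapped between diets in the heavy pool and not in the light pool. By edgeR's quasi-likelihood test its log2 keto over chow was 0.46 ± 0.91 (standard error) in the heavy pool (adjusted p = 0.938) and 1.09 ± 1.21 in the light pool (adjusted p = 0.892). What share of these counts comes from Lars2 mRNA was not tested, and no statement on the family below includes it.

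The ketogenic diet was compared with chow first, to ask which synthetase mRNAs differed after 24 h of the diet. In the heavy pool, 17 of the 20 cytosolic synthetases had a negative log2 change and 3 a positive one, with a median of -0.79. All genes tested had a median of -0.044, and 51.6% of them were negative. Light pools gave 16 of the 20 negative with a median of -0.73, against a median of -0.13 and 55.8% negative over all genes. With both pools of a liver summed, 17 of 20 were negative with a median of -0.65, against -0.059 and 52.9%. No single synthetase passed edgeR's test at an adjusted p under 0.05 in any of the 3 comparisons, and neither did any other gene (0.0% of 10552, 10551 and 10555 genes tested in the heavy pool, the light pool and the sum). DESeq2 and limma-voom called none of the 35 either, although DESeq2 gave an adjusted p to only 9 of them in the heavy pool and 6 with pools summed. Over all genes DESeq2 called 111 in the heavy pool, 0 in the light pool and 51 with pools summed, and limma-voom 4, 0 and 0.

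The 15 mitochondrial synthetases did not share that pattern in the heavy pool, where 8 were positive and 7 negative with a median of 0.16. Light pools had 11 of the 15 negative with a median of -0.51, and with pools summed 8 of 15 were negative with a median of -0.046. The difference between the cytosolic and mitochondrial sets was not tested.

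**Figure D1:**
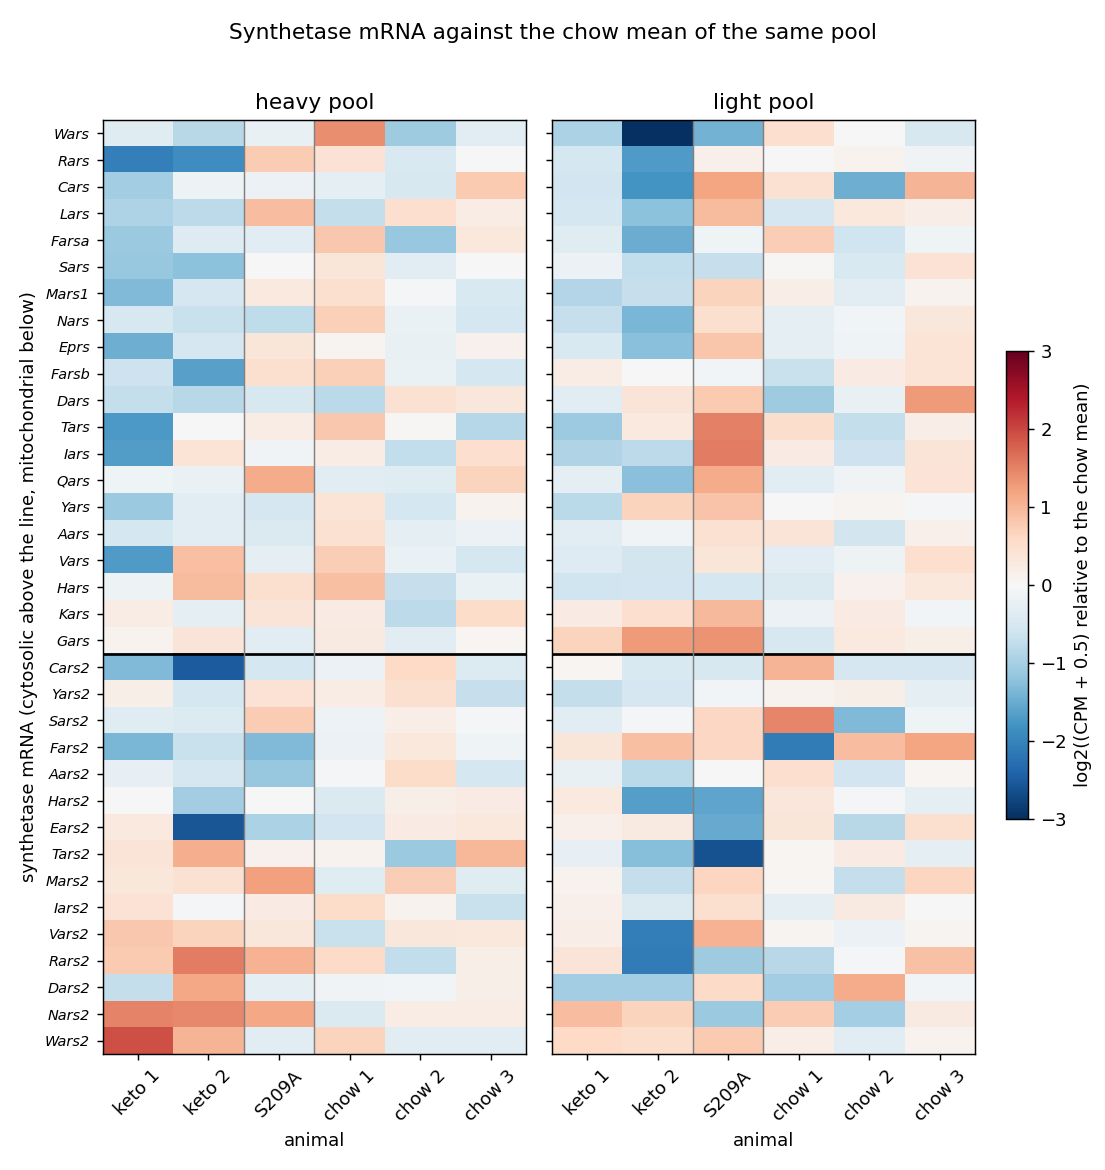
Each cell gives log2((CPM + 0.5) relative to the chow mean) of 1 synthetase mRNA in 1 library, for the heavy and the light pool, with keto, S209A and chow animals from left to right; red is above and blue below the mean of the 3 chow libraries of that pool. Blue cells predominate among the 20 cytosolic synthetases of both keto animals, red cells in the S209A light pool.

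The values differed between the keto animals. Relative to the chow mean of the same pool, the median over the 20 cytosolic synthetases in the heavy pool was -1.09 in keto 1 and -0.38 in keto 2, against 0.44, -0.35 and 0.044 in chow 1, chow 2 and chow 3. Keto 2 therefore lay next to chow 2, and only keto 1 stood clear of the chow animals. Light pool medians were -0.50 and -0.75 in keto 1 and keto 2, against -0.11, -0.11 and 0.28 in the chow animals, and the groups did not overlap. The same per-library medians over all genes were between -0.14 and 0.15.

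Summed over the 20 genes, cytosolic synthetases stood at 986 counts per 1000000 protein-coding counts in the keto 1 heavy pool (95% Wilson interval 917 to 1060) and 1756 in keto 2 (1649 to 1870). The chow heavy pools gave 1963 (1856 to 2076), 1202 (1140 to 1267) and 1691 (1632 to 1753). The S209A heavy pool gave 1738 (1669 to 1810). By this measure, which the genes with most counts dominate, the keto 2 heavy pool lay within the chow range.
Light pool sums were 1111 (1032 to 1196) and 1107 (1004 to 1222) in keto livers and 1914 (1839 to 1991) in the S209A liver. The chow light pools gave 1941 (1831 to 2057), 1273 (1200 to 1351) and 1884 (1818 to 1952). Both keto light pools were below all chow light pools. These intervals cover counting error only.

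**Figure D2:**
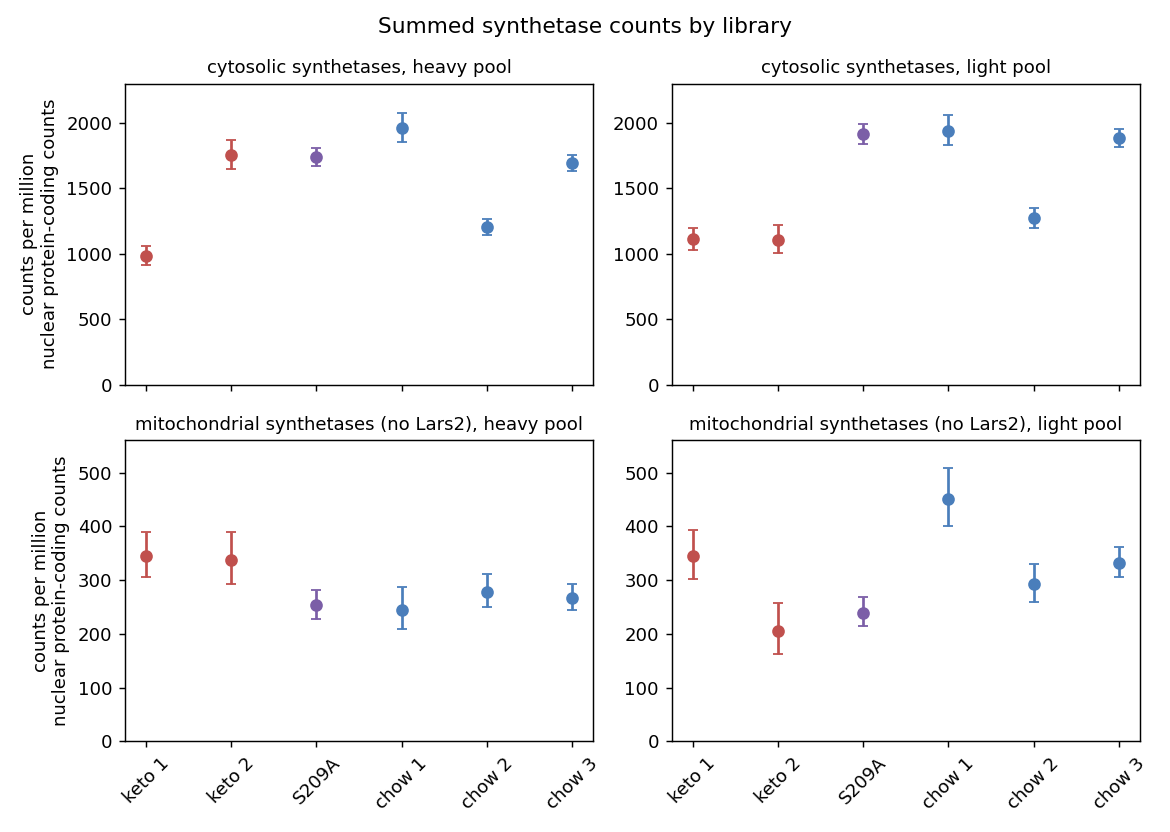
Summed counts of the cytosolic (top) and mitochondrial (bottom, without Lars2) synthetases in counts per 1000000 nuclear protein-coding counts, by library, for heavy (left) and light (right) pools; points are single libraries, bars are 95% Wilson intervals, and colours mark ketogenic diet, S209A and wild-type chow. In the light pool both keto points, at 1111 and 1107, lie below the 3 chow points for the cytosolic enzymes, while in the heavy pool keto 2, at 1756, lies among them.

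Mitochondrial synthetases summed to 345 (305 to 390) and 338 (293 to 390) counts per 1000000 in keto heavy pools, above the 245 (208.8 to 286.5), 278 (250 to 311) and 267 (244 to 292) of the chow heavy pools. Light pools gave 345 (302 to 394) and 205 (163 to 257) in keto livers, against 451 (400 to 509), 292 (259 to 331) and 332 (305 to 362) in chow livers, where the groups overlapped.

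Library composition differed between diets in the heavy pool. Mitochondrial rRNA took 47.3% and 74.2% of counts in keto heavy pools against 16.7%, 12.9% and 13.8% in chow heavy pools. Nuclear protein-coding genes took 5.60% and 6.01% there against 15.9%, 22.2% and 29.7%. In light pools mitochondrial rRNA took 37.6% and 51.8% in keto livers against 58.2%, 52.6% and 13.5% in chow livers, which overlapped. Nuclear noncoding RNA also stood apart in the keto heavy pools. Summed markers of it (12 RNAs such as Malat1, Neat1 and Rn7sk) reached 112165 and 104078 counts per 1000000 protein-coding counts in keto heavy pools, against 9760, 13857 and 20650 in chow heavy pools, and they stood at 60872 and 87275 in keto light pools against 72583, 40346 and 13798 in chow light pools. Their median log2 keto over chow in the heavy pool was 2.07, with 8 of 9 tested members positive. The summed cholangiocyte markers were lower in keto heavy pools, at 9.43 and 19.996 counts per 1000000 protein-coding counts (7 and 11 counts) against 86.3, 36.5 and 31.5 in chow heavy pools (54, 42 and 56 counts). Krt19 was at 0 in all 5 of these pools, and Epcam and Krt7 in all but chow 3. Sox9 was also at 0 in keto 1, so that its value rests on Spp1 alone. Erythroid markers were higher in keto light pools, at 140 and 415 counts per 1000000 protein-coding counts against 77.2, 81.2 and 40.2 in chow light pools, with Slc4a1 at 0 in all 5. Lymphocyte markers were at 0 in both keto light pools, against 6.86, 2.32 and 1.24 in chow light pools, from only 4, 2 and 2 counts of 1 gene each. In heavy pools they overlapped, at 13.5 and 0 in keto livers against 6.39, 8.70 and 0 in chow livers. The part of these RNAs and of library composition in the synthetase values was not tested.

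In terms of the complex, the 8 cytosolic enzymes that belong to it (Dars, Eprs, Iars, Kars, Lars, Mars1, Qars and Rars) were all negative in the heavy pool, with a median of -0.93, and 7 of 8 were negative in the light pool, with a median of -0.86. With the wording of the sample titles as a batch, 6 of 8 were negative in each pool. The 10 enzymes listed as class I were negative in 9 cases in the heavy pool, 9 in the light pool and all 10 with pools summed, where their median was -0.80. The bifunctional Eprs was counted in class I alone. The 10 class II enzymes were negative in 8, 7 and 7 cases. The 13 synthetases listed as ATF4-induced were negative in 11 cases in the heavy pool (median -0.78), 11 in the light pool (-0.83) and 12 with pools summed (-0.77). Since most cytosolic enzymes were negative, these overlapping lists repeat the same genes.

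Of the complex enzymes, 4 (Eprs, Lars, Mars1 and Rars) were below all 3 chow livers in both keto livers and in both pools, where 2.98% of all genes were. They were among 7 of 20 cytosolic synthetases below the chow range in the heavy pool and 9 of 20 in the light pool. Over all 35 synthetases, 10 were below the chow range in the heavy pool, where 13.4% of all genes were, and 10 in the light pool, where 14.6% of all genes were. Another 4 were above it in the heavy pool (Nars2, Rars2, Vars2 and Wars2, all mitochondrial), where 14.5% of all genes were, and 2 in the light pool (Gars and Wars2), where 11.2% were.

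Rars, the arginyl enzyme (Entrez 104458, chromosome 11, 35808381 to 35834528), had the most negative heavy-pool value of the enzymes with a mean of at least 20 counts per library. It stood at 0.786 and 0.966 CPM in keto heavy pools, from 5 counts each, against 6.70, 3.33 and 4.88 CPM in chow heavy pools, from 27, 23 and 67 counts. The log2 change was -2.48 ± 0.81 in the heavy pool, with an unadjusted p of 0.00923 and an adjusted p of 0.497 by edgeR. In the light pool it stood at 3.81 and 1.41 CPM in keto livers against 5.74, 6.18 and 5.30 CPM in chow livers, a log2 change of -1.07 ± 0.65 (adjusted p = 0.804). Summed over pools the log2 change was -1.65 ± 0.49 (adjusted p = 0.534). Both keto livers were below every chow liver in both pools, and the adjusted values missed the threshold.

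Eprs, the bifunctional enzyme for glutamate and proline (Entrez 107508, chromosome 1, 185361417 to 185428360), had 15.1 and 29.7 CPM in keto heavy pools against 44.9, 36.5 and 46.7 CPM in chow heavy pools. In light pools it had 22.5 and 12.7 CPM in keto livers against 25.2, 28.3 and 41.2 CPM in chow livers. The log2 changes were -0.93 ± 0.50 (edgeR adjusted p = 0.660) and -0.83 ± 0.50 (adjusted p = 0.804). The keto livers were lower in both pools, with the closest pair, keto 1 and chow 1, in the light pool.

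Mars1, the methionyl enzyme, had 2.83 and 5.41 CPM in keto heavy pools against 11.2, 7.68 and 5.61 CPM in chow heavy pools, and 3.05 and 3.53 CPM in keto light pools against 6.96, 4.74 and 6.55 CPM in chow light pools. Lars, the cytosolic leucyl enzyme, had 3.77 and 4.25 CPM in keto heavy pools against 4.47, 11.02 and 9.04 CPM in chow heavy pools, and 5.53 and 3.18 CPM in keto light pools against 5.57, 10.2 and 9.43 CPM in chow light pools. For Lars the gap to the nearest chow animal was small in both pools. Their log2 changes were -0.98 ± 0.63 and -1.04 ± 0.61 in the heavy pool, with edgeR adjusted p = 0.730 and 0.703.

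Sars, the seryl enzyme, had 5.35 and 5.02 CPM in keto heavy pools against 16.1, 9.71 and 12.2 CPM in chow heavy pools, without overlap. Its log2 change was -1.28 ± 0.55, with an unadjusted p of 0.0374 and an adjusted p of 0.576 by edgeR. In light pools it had 9.53 and 6.36 CPM in keto livers against 11.1, 7.76 and 14.8 CPM in chow livers, where the ranges overlapped. Rars and Sars were the only 2 of the 35 synthetases with an unadjusted p under 0.05 in the heavy pool, and 8.17% of all genes had one there in either direction. Of the light pool values, none of the 35 had one, against 6.07% of all genes, and with pools summed 2 of 35 did, Rars and Wars, against 8.8% of all genes.

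Wars, the tryptophanyl enzyme, was the lowest of these enzymes in the light pool, at 2.67 and 0 CPM in keto livers against 8.18, 5.60 and 3.90 CPM in chow livers. The keto 2 light pool, where it is at 0, had 468 synthetase counts in all. Its log2 change was -1.95 ± 0.96 in the light pool (edgeR adjusted p = 0.796) and -1.74 ± 0.75 with pools summed (unadjusted p = 0.0467, adjusted p = 0.563). In heavy pools it had 1.26 and 0.773 CPM in keto livers against 5.46, 0.580 and 1.31 CPM in chow livers, which overlapped. Cars, the cysteinyl enzyme, followed with a log2 change of -1.57 ± 0.91 in the light pool and -1.08 ± 0.65 with pools summed, and Iars with -1.08 ± 0.66 in the light pool.

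Among the exceptions, Gars, the glycyl enzyme that serves both compartments, had 6.67 and 10.6 CPM in keto light pools against 2.78, 5.03 and 4.68 CPM in chow light pools, above all chow livers. Its log2 change was 1.02 ± 0.54 in the light pool (edgeR adjusted p = 0.799) and 0.66 ± 0.39 with pools summed (adjusted p = 0.623). In the heavy pool it had 5.50 and 6.76 CPM in keto livers against 6.21, 3.91 and 5.25 CPM in chow livers, which overlapped. Kars, the lysyl enzyme, which also serves both compartments, had a log2 change of 0.42 ± 0.63 in the light pool and -0.13 ± 0.72 in the heavy pool. Hars, the histidyl enzyme, gave 0.38 ± 0.70 in the heavy pool and -0.68 ± 0.58 in the light pool.

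Of the enzymes whose promoters held the response element motif, all but Gars were negative in the heavy pool, where 17 of all 20 cytosolic enzymes were. Log2 keto over chow in the heavy pool was -0.48 for Aars, 0.26 for Gars, -0.42 for Iars, -0.77 for Tars and -0.81 for Yars, and none passed the test. Aars had 32.1 and 36.7 CPM in keto heavy pools against 63.8, 38.8 and 41.0 CPM in chow heavy pools, just below the chow range. Tars had 9.59 and 33.0 CPM in keto heavy pools against 58.1, 33.5 and 17.9 CPM in chow heavy pools, and only keto 1 was below the chow range.

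**Figure D3:**
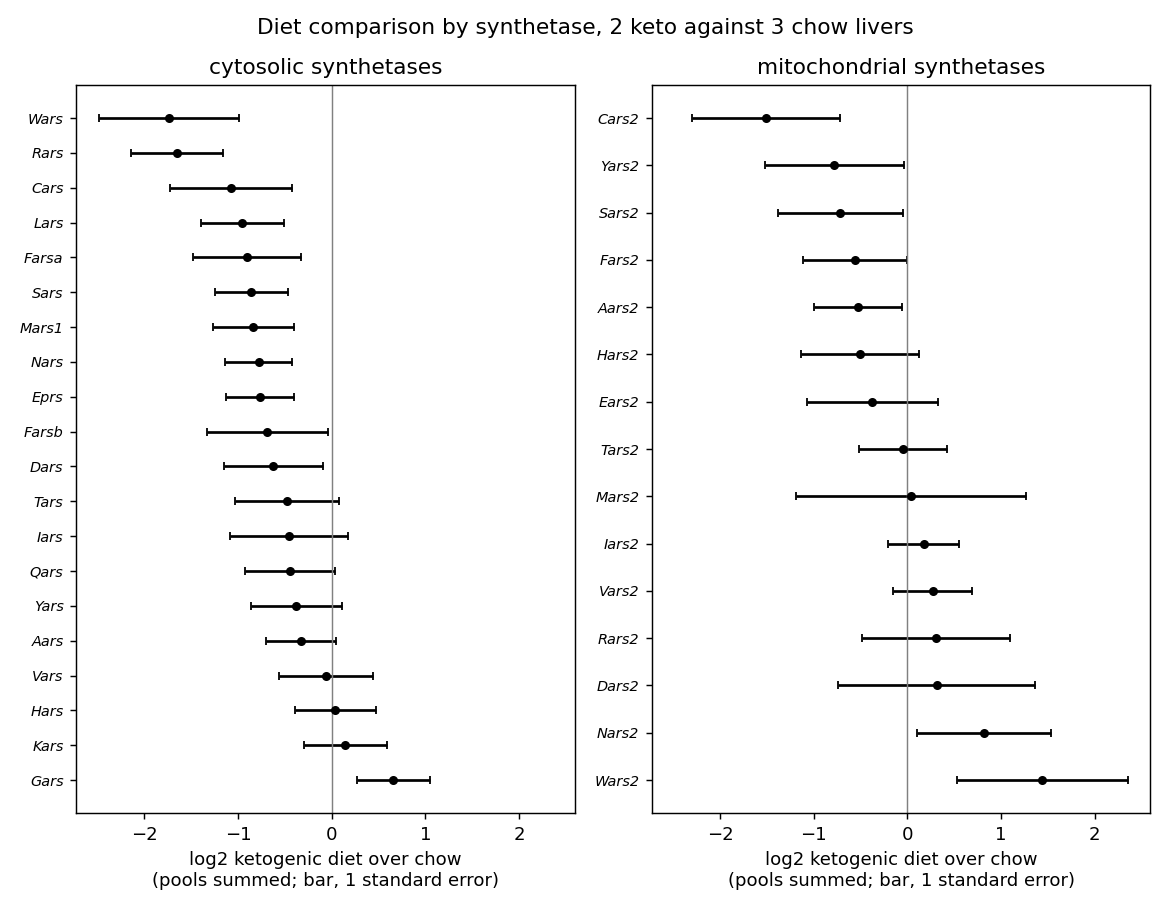
Log2 ketogenic diet over chow with both pools of a liver summed (2 keto and 3 chow livers), for the 20 cytosolic (left) and 15 mitochondrial (right) synthetases, ordered by value; points are edgeR estimates and bars 1 standard error. Of the cytosolic enzymes 17 lie left of 0, from -1.74 for Wars to -0.060 for Vars, and of the mitochondrial enzymes 8.

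Of the mitochondrial enzymes, Vars2 (valyl) had 6.45 and 5.79 CPM in keto heavy pools against 1.99, 4.49 and 4.45 CPM in chow heavy pools, above all chow livers, with a log2 change of 0.73 ± 0.67 (edgeR adjusted p = 0.827). In the light pool Vars2 had 5.34 and 0.707 CPM in keto livers against 4.87, 4.02 and 4.91 CPM in chow livers, so that 1 keto liver was above and the other below. Fars2 (phenylalanyl) had 2.20 and 3.86 CPM in keto heavy pools against 5.71, 8.12 and 5.83 CPM in chow heavy pools, a log2 change of -1.11 ± 0.70 (adjusted p = 0.711). Tars2 (threonyl) gave 0.60 ± 0.96 in the heavy pool, Iars2 (isoleucyl) 0.17 ± 0.38 with pools summed, and Nars2 (asparaginyl) 0.73 ± 0.79 in the light pool. These enzymes differed in sign, and none passed the test.

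Other genes of the pathway were mixed in sign. Of 15 other genes of aminoacylation and tRNA handling, 13 were tested, and 8 were positive and 5 negative in the heavy pool (median 0.43), 4 positive and 9 negative in the light pool (median -0.17), and 8 positive and 5 negative with pools summed (median 0.22). EdgeR called none of them in the 3 diet comparisons, and their difference from the cytosolic synthetases was not tested. Of 30 genes of the amino acid response, 19 were tested, with 10 positive and 9 negative with pools summed (median 0.054), and none was called by edgeR. Within that list Slc3a2, the heavy chain of amino acid transporters, had 4.72 and 3.09 CPM in keto heavy pools against 32.0, 22.5 and 7.58 CPM in chow heavy pools, with a log2 change of -2.39 ± 0.68 and an edgeR adjusted p of 0.490. It passed under 5 of 13 alternatives, with an adjusted p of 0.00950 to 0.996 over all of them. Among the 5 were edgeR without chow 3 (adjusted p = 0.0143), with title wording as a batch (0.0131) and with the replicate block (0.00950). Each of these takes chow 3, the chow liver nearest to the keto livers, out of the contrast. DESeq2 (0.0416) and edgeR with no filter (0.0352) were the others. With pools summed Slc3a2 passed by DESeq2 (adjusted p = 0.0404) and by edgeR with no filter on low counts (adjusted p = 0.0217). With pools summed, Atf4 itself gave -0.073 ± 0.65, its target Asns (asparagine synthetase) -2.33 ± 1.51, the pseudokinase gene Trib3 -0.22 ± 1.10 and the fasting hormone gene Fgf21 0.45 ± 1.15, none with an adjusted p below 0.649. Asns rested on 0 to 12 counts per library. Of the complex scaffold, Aimp1 and Aimp2 were tested and gave -0.33 ± 0.69 and -0.34 ± 0.93, while Eef1e1 had 0 to 8 counts per library and was not tested.

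Synthetase mRNAs in the heavy and light pools were compared next, as heavy over light within each liver. Each library was made from 10 ng of RNA and scaled by TMM, and 0 ERCC control IDs were in the counts. The ratio thus compares an mRNA's relative share of each pool, and not how its molecules were spread over the gradient. In the 3 chow livers, 18 of 35 synthetases were positive and 17 negative, with a median of 0.17 against -0.093 over all genes. Cytosolic synthetases were positive in 12 of 20 cases with a median of 0.28, and mitochondrial ones in 6 of 15 with a median of -0.37. None was called by edgeR at an adjusted p under 0.05, where 0.227% of 10555 genes were, and none by limma-voom or by DESeq2, which gave an adjusted p to 1 of them. In keto livers 21 of 35 were positive with a median of 0.040 against 0.026 over all genes, and none was called, against 0.18% of all genes, or had an unadjusted p under 0.05, against 4.27%. Of the 35, 8 were higher in the heavy pool of both keto livers, where 25.9% of all genes were, and 7 lower, where 23.2% were. Over all 6 livers 17 of 35 were positive with a median of -0.022 against -0.013, and none was called, against 0.0284% of all genes.

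The livers differed from each other in this ratio. For the cytosolic enzymes the median log2 heavy over light was -0.33 in keto 1, 0.53 in keto 2, -0.21 in S209A, 0.73 in chow 1, 0.013 in chow 2 and -0.17 in chow 3. In chow 1 the heavy pool was higher for 16 of 20 cytosolic and 4 of 15 mitochondrial enzymes, and in S209A for 6 of 20 and 9 of 15. The medians over all genes in these livers lay between -0.085 and 0.025. Neither the keto nor the chow livers shared a direction.

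**Figure D4:**
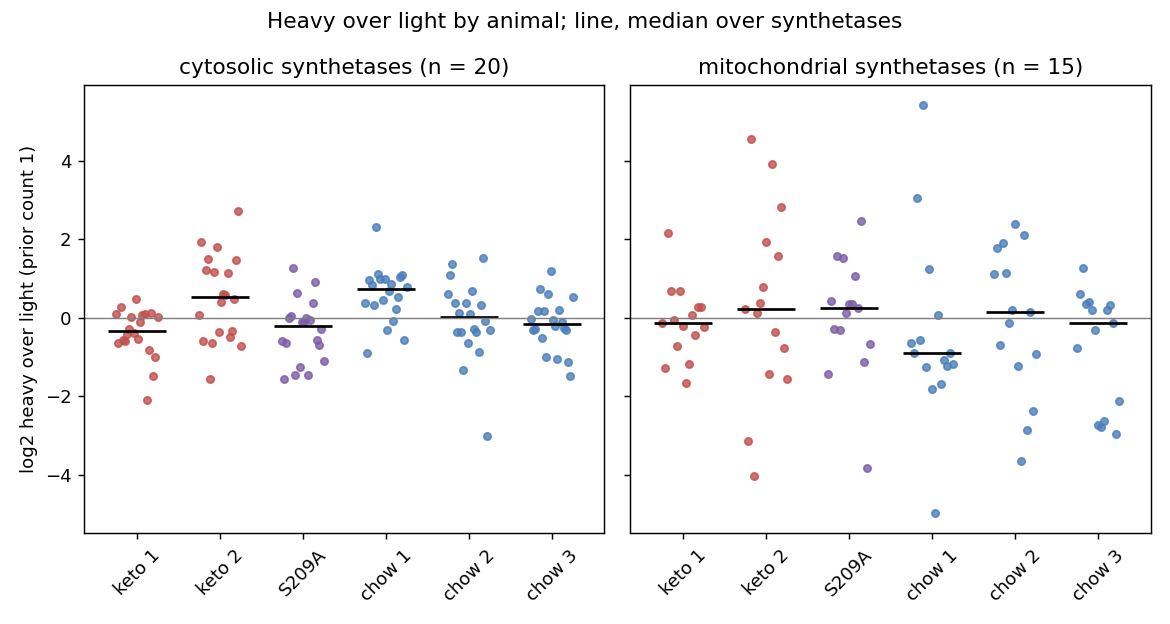
Log2 heavy over light (prior count 1) of each cytosolic (left) and mitochondrial (right) synthetase in each animal, keto, S209A and chow from left to right; each point is 1 gene and black lines are medians over the genes. The cytosolic medians run from -0.33 in keto 1 to 0.73 in chow 1, and the mitochondrial points spread more widely.

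Only Yars2, the mitochondrial tyrosyl enzyme, was lower in the heavy pool in all 6 livers, where 1.49% of all genes were, and no synthetase was higher in all 6, against 1.5% of all genes. Yars2 log2 heavy over light was -0.25 and -1.57 in keto livers, -0.68 in the S209A liver, and -1.19, -0.92 and -2.11 in chow livers, all from 2 to 22 counts. Its fitted value over all livers was -1.23 ± 0.79 (edgeR adjusted p = 0.998).

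In chow livers Eprs, Fars2 and Iars were higher in the heavy pool in all 3 animals (12.2% of all genes were), and Nars2, Wars, Wars2 and Yars2 were lower in all 3 (16.0% of all genes). Nars2 had 0, 0.290 and 0.292 CPM in heavy pools against 4.17, 0.862 and 2.81 CPM in light pools of chow 1, chow 2 and chow 3, from 0 to 4 against 6 to 36 counts. Its log2 heavy over light was -3.26 ± 1.28, with an unadjusted p of 0.0109 and an adjusted p of 0.417 by edgeR. In keto livers Nars2 had 1.42 and 1.35 CPM in heavy pools against 4.77 and 3.89 CPM in light pools, and in the S209A liver 1.03 against 0.771 CPM. The heavy pool was thus lower in 5 of 6 livers, and over all livers the value was -1.97 ± 0.80, with an unadjusted p of 0.0192 and an adjusted p of 0.998. It was the only 1 of the 35 with an unadjusted p under 0.05 over all livers, where 3.4% of all genes had one.

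Wars had 5.46, 0.580 and 1.31 CPM in heavy pools against 8.18, 5.60 and 3.90 CPM in light pools of chow livers, a log2 heavy over light of -1.69 ± 0.83 (unadjusted p = 0.0428, edgeR adjusted p = 0.671). Fars2 had 5.71, 8.12 and 5.83 CPM in heavy pools against 0, 3.59 and 4.36 CPM in light pools, a value of 1.72 ± 0.74 (unadjusted p = 0.0196, adjusted p = 0.521) that was 0.78 without chow 1, whose light pool is at 0. Tars had 58.1, 33.5 and 17.9 CPM in heavy pools against 28.0, 11.5 and 22.2 CPM in light pools. It was higher in the heavy pool of chow 1 and chow 2 and lower in chow 3, with a value of 0.76 ± 0.38 (unadjusted p = 0.0484, adjusted p = 0.706). Without chow 3, the library pair that shares its title wording and aligner with S209A, Tars gave 1.26 with an edgeR adjusted p of 0.0273. In that setting 402 of 10554 genes were called. Tars was the only synthetase called under any setting tried, and over all its alternatives the adjusted p ranged from 0.0273 to 1. Nars2, Wars, Fars2 and Tars were the 4 of 35 with an unadjusted p under 0.05 in chow livers, against 6.96% of all genes.

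Others named by their rank among well-counted synthetases in chow livers were Dars (aspartyl, 0.67 ± 0.47), Tars2 (-1.15 ± 0.85) and Hars (-0.50 ± 0.57). In keto livers they were Vars2 (1.27 ± 0.82), Iars2 (0.74 ± 0.61) and Hars (0.59 ± 0.71) at the upper end, and Sars (-0.60 ± 0.59), Gars (-0.46 ± 0.67) and Dars (-0.15 ± 0.58) at the lower end. Over all livers they were Fars2 (0.78 ± 0.56), Iars2 (0.44 ± 0.32) and Tars (0.38 ± 0.29), and Rars (-0.43 ± 0.44), Aars2 (alanyl, -0.30 ± 0.48) and Gars (-0.27 ± 0.38). None of these passed the test. Lars2 gave -0.11 ± 0.54 in chow livers, -1.33 ± 0.70 in keto livers and -0.35 ± 0.45 over all livers.
Of the nuclear noncoding RNAs, 9 of 9 tested members were negative in chow livers, with a median of -1.34, and their part in the synthetase ratios was not tested. Of the scaffold and amino acid response genes, Aimp1 gave 0.26 ± 1.08, Aimp2 1.08 ± 1.64, Atf4 0.035 ± 0.45, Asns 1.20 ± 2.31, Trib3 0.53 ± 1.32 and Fgf21 0.82 ± 1.23 heavy over light in chow livers, and edgeR called no member of these lists. DESeq2 called Cth, the cystathionine gamma-lyase gene of the response list (log2 0.82 ± 0.31, adjusted p = 0.0467), among 97 genes called in all. Without chow 3 edgeR called Slc3a2 (1.93 ± 0.51, adjusted p = 0.00969), among 402 genes called in all.

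The diet effect on heavy over light, tested as an interaction, called none of the 35 synthetases, where 0.189% of 10555 genes were called, and none had an unadjusted p under 0.05, against 6.04% of all genes. The median was 0.090 against 0.15 over all genes, with 8 of 20 cytosolic and 11 of 15 mitochondrial enzymes positive. At the upper end of the well-counted enzymes were Wars (1.70 ± 1.48), Tars2 (1.65 ± 1.34) and Vars2 (1.64 ± 1.02), and at the lower end Fars2 (-1.68 ± 1.15), Rars (-1.26 ± 1.10) and Dars (-0.82 ± 0.74). Lars2 gave -1.23 ± 0.88 (edgeR adjusted p = 0.955).

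The S209A liver was set against the range of the 3 chow livers, without a test. In its light pool, 13 of the 20 cytosolic synthetases were above all chow livers, 3 were below and 4 lay within the range. Of all genes, 27.3% were above and 30.7% below. The median log2 over the chow mean was 0.76 for these 20 enzymes, 0.025 for the 15 mitochondrial ones and -0.055 over all genes. In its heavy pool only 4 of 20 cytosolic enzymes were above the chow livers and 3 below, with a median of -0.047 against 0.13 over all genes. Of all genes there, 22.4% were above and 17.1% below.
Against chow 3 alone, the chow animal whose libraries share its title wording and aligner, 14 of the 20 were higher in the S209A light pool, where 47.8% of all genes were higher, and 11 of the 20 in the heavy pool, where 48.2% were. The summed share in the light pool, 1914 counts per 1000000 protein-coding counts (1839 to 1991), lay between those of chow 3 and chow 1, at 1884 and 1941.

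Iars, the isoleucyl enzyme, was the farthest above chow in the S209A light pool, with 12.6 CPM in S209A against 4.87, 2.44 and 5.38 CPM in chow, a log2 difference of 1.62. Tars followed with 56.3 CPM in S209A against 28.0, 11.5 and 22.2 CPM in chow (1.54), and Gars with 11.1 CPM in S209A against 2.78, 5.03 and 4.68 CPM in chow (1.42). At the other end were Tars2 with 0.257 CPM in S209A against 4.35, 5.03 and 3.27 CPM in chow (-3.44), from 2 counts, Hars2 (-1.93) and Wars with 1.80 CPM in S209A against 8.18, 5.60 and 3.90 CPM in chow (-1.58). Each of these lay outside the chow range, having been picked as farthest from the chow mean. Of all genes in that pool, 27.3% were above the chow range and 30.7% below it.
In the S209A heavy pool Qars, the glutaminyl enzyme, had 8.95 CPM in S209A against 2.98, 2.90 and 6.42 CPM in chow (1.20), Lars 14.9 against 4.47, 11.02 and 9.04 CPM (0.95), and Sars2, the mitochondrial seryl enzyme, 3.70 against 1.74, 2.32 and 1.90 CPM (0.87). The lowest were Fars2 (-1.46), Aars2 (-1.31) and Ears2, the mitochondrial glutamyl enzyme (-1.15). Lars, Qars, Eprs and Rars, members of the multisynthetase complex, and the mitochondrial Vars2 were above all chow livers in both S209A pools, 5 of 35 synthetases, where 7.28% of all genes were. Of the 5 promoters with the response element motif, those of Aars, Gars, Iars, Tars and Yars, every gene was above the chow range in the S209A light pool, where 13 of all 20 cytosolic enzymes and 27.3% of all genes were. In the heavy pool none of the 5 was above it, and Aars and Gars were below it, where 17.1% of all genes were. Gars lay only just below, at 3.909 CPM against a chow minimum of 3.914 CPM.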

How the data were processed

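Heavy and light pools of 6 livers were sequenced, 12 libraries in all, from 10 ng of RNA each with a strand-keeping low-input library kit, per the labels' protocols. The labels do not say which of the fraction ranges 2 to 7 and 8 to 13 is the heavy pool. The authors deposited 1 file per library with raw counts, indexed by Entrez number. The submitters' processing notes list Trimmomatic, HISAT2, StringTie and build mm10, while the file headers name Bowtie2 for chow 1 and chow 2, HISAT2 for chow 3 and S209A, and no aligner for keto. How reads were counted, on which strand and with which versions is not given in the sources used here. Without them, reads of overlapping genes or near-identical copies could be shared between IDs. Among deposited counts from 1 to 20, 62.9% to 71.7% were even in chow 1, chow 2 and keto libraries and 86.7% to 90.1% in chow 3 and S209A libraries, so counts do not come singly and counting intervals are too narrow.

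Symbols came from RefSeq GRCm38.p6 (25275 of 27179 IDs matched; 1904 without a match stayed in the tests under their ID). The naming rule spells glutamyl-prolyl synthetase in a way that no gene bears, and Eprs was taken for it. The members and lists were chosen with earlier results of these data known. edgeR 4.0.16 (R 4.3.3) was run on the counts with TMM scaling, filterByExpr at a minimum count of 10 (10555 genes kept) and the quasi-likelihood test with its legacy option, adjusted by Benjamini-Hochberg over all genes at 0.05. Heavy against light was fitted with the animal as a block, and keto against chow within each pool and on summed pools. S209A, with 1 animal, was set against the chow range. Standard errors were taken as the log2 change over the square root of F. DESeq2 1.42.0, limma 3.58.1 (voom), protein-coding genes alone, no filter, a mean of at least 50 counts, title wording as a batch, the replicate number as a block and leaving out each animal were alternatives, and the script was tested on simulated data. p-values measure only the spread between these animals.

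Named were all synthetases past the test, the 3 highest and 3 lowest in each comparison among those with a mean of at least 20 counts, Lars2, and Aimp1, Aimp2, Eef1e1, Asns, Atf4, Trib3 and Fgf21. Eprs, Lars, Mars1, the genes with a motif, Slc3a2 and those with an unadjusted p under 0.05 were named after their values were seen. A ranking of genes by level per length was planned and not run, since no transcript lengths were used here. Heavy and light pools of chow animals 1 to 3 deviated together across genes (r = 0.28, 0.28 and 0.44), whereas chow and keto animals of the same number did not (r = -0.0092 and -0.026) and share only a number. Both pools of an animal also share title wording and the aligner in the header, which these correlations cannot tell apart from the animal. Heavy and light pools of keto animals were not checked in this way. The labels give a time of 0 h beside the 24 h of the protocol, and it was not used.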

Additional observations from a re-analysis of the deposited data

How the results depend on the processing

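The number of synthetases called stayed at 0 under every alternative of the 7 tested comparisons, except for 1 (Tars) in chow livers without chow 3, so a range of 0 to 1 over left-out animals. The number of cytosolic synthetases below 0 for keto over chow stayed at 16 to 18 of 20 in the heavy pool, 15 to 17 in the light pool and 13 to 19 with pools summed over the alternatives that left all 20 in the test, 13 being without keto 1, 19 without chow 2, and 17 or 18 with all animals in; a mean of at least 50 counts left 9, 8 and 18 of them, of which 8, 8 and 14 were below 0. The family's median moved most with single animals: without keto 1 or keto 2 it ranged from -0.27 to 0.44 for heavy over light in keto livers, from -0.21 to 0.49 for the diet effect on that ratio, and from -0.85 to -0.36 for keto over chow in the light pool, where a mean of at least 50 counts gave -0.42. The count of cytosolic enzymes above chow in the S209A heavy pool ranged from 4 to 10 over left-out chow animals, 10 being without chow 1, and in the light pool from 13 to 15. 

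Over all genes the calls ranged over the alternatives from 0 to 402 for heavy over light in chow livers (402 without chow 3, 97 with DESeq2, 0 without the edgeR legacy option), 0 to 33 in keto livers, 0 to 19 over all livers, 0 to 211 for the diet effect on that ratio, and 0 to 126 for keto over chow in the heavy pool (126 with title wording as a batch, 112 with no filter, 111 with DESeq2), 0 to 39 in the light pool and 0 to 122 with pools summed. No paired analysis of keto and chow is given beside the results, since their numbers pair nothing; with that replicate block 83, 5 and 4 genes were called in the heavy pool, the light pool and the sum, and without the animal as a block heavy over light called 0 genes in chow livers, with no synthetase among any of these.

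Signs turned as follows; the cause was not tested. With the replicate block, keto over chow was -0.077 for Lars2 in the heavy pool and -0.011 for Iars2 and 0.42 for Trib3 with pools summed. With limma-voom it was 0.30 for Trib3. For heavy over light in chow livers, Atf4 gave -0.029 with limma-voom, -0.080 with a mean of at least 50 counts and -0.25 with no replicate block, and Fgf21 gave -0.11 with limma-voom. Over left-out animals, heavy over light ranged from -0.59 to 0.026 for Lars2 over all livers, from -0.60 to 0.28 for Dars in keto livers and, in chow livers, from -0.53 to 0.39 for Lars2, -0.18 to 2.37 for Asns, -0.34 to 0.46 for Atf4, -0.40 to 0.87 for Trib3 and -0.71 to 2.88 for Fgf21. Keto over chow ranged from -0.33 to 1.01 for Hars and -1.04 to 1.18 for Lars2 in the heavy pool, and with pools summed from -0.044 to 0.52 for Vars2, -0.074 to 0.38 for Iars2, -0.96 to 0.072 for Aimp1, -1.04 to 0.10 for Aimp2, -1.07 to 0.65 for Atf4, -0.80 to 1.14 for Trib3 and -0.10 to 1.83 for Fgf21. The remaining limits are few counts per enzyme, 2 keto livers and 1 S209A liver, and an aligner that differs between animals.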
